A study of Mus musculus with 12 samples.

Results

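The growth hormone, Stat5 and IGF axis was followed in mouse liver through 10 transcripts, Ghr, Stat5b, Igf1, Igfals, Socs2, Cish, Bcl6, Igfbp1, Igfbp2 and Igfbp3. They were chosen by function and found by matching the Entrez identifiers of a bulk RNA-seq count table to mouse symbols, which gave 10 members of 27179 genes. Bcl6 was also selected on its measured CPM in the 4 groups, so it is described here without a test and the other 9 members were tested. The 12 libraries came from livers of male mice that were 8 weeks old when the diets began. For 1 week the mice ate chow, called CD, or a low-protein diet, called LPD, then were injected with empty vector (Vec) or with oncogenes, and stayed on their diet. The 4 groups of 3 were CD Vec and LPD Vec, and CD c-MET/β-catenin and LPD c-MET/β-catenin, and all were taken at the end point of the CD c-MET/β-catenin mice. The oncogenes were human c-MET and β-catenin made constitutively active by loss of its N terminus. Plasmids entered some hepatocytes of each liver by hydrodynamic injection into the tail vein and were inserted by Sleeping Beauty transposase, so every oncogene library mixes cells with and without the plasmids. The Vec livers received the same kind of injection. The labels call these controls WT in their titles, and they give hepatocyte as the cell type although the tissue is whole liver.

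Growth hormone from the pituitary binds its receptor on hepatocytes, which activates the kinase Jak2 and the transcription factors Stat5a and Stat5b. Stat5b drives Igf1 and Igfals, whose products form most of the circulating IGF complex together with Igfbp3, and it also drives Socs2 and Cish, which restrain the receptor. Bcl6 is a repressor that Stat5 lowers and that binds many of the same sites, and the pulsatile male pattern of growth hormone maintains male-biased liver genes through Stat5b. Igfbp1 and Igfbp2 bind IGFs outside that complex, and Igfbp1 is known to rise in fasting and with amino acid shortage and to fall with insulin.

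Libraries held 19476209 to 31990267 counts, and levels are given as CPM, a gene's counts relative to the library total, scaled by trimmed mean of M values (TMM) factors. The 7 measured hepatocyte markers summed to between 66500 and 117000 CPM in the 12 libraries. Endothelial markers summed to between 108 and 234 CPM and macrophage markers to between 106 and 392 CPM. Transcripts of other cells were therefore present, and in whole liver fewer cells of a type and less RNA per cell cannot be told apart. Dataset numbers in the header of the count table fall into 3 runs whose meaning is not stated. Run 1 held CD c-MET/β-catenin replicates 1 and 2 alone, run 3 held CD Vec replicates 1 and 2 with LPD Vec replicate 1, and run 2 held the other 7 libraries. The study describes the groups as mice, although the labels number libraries without naming animals, so p-values measure the spread between these libraries. A gene was called where its adjusted p, over all genes tested, was under 0.05.

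Ghr encodes the growth hormone receptor (chr15:3317760-3583492, minus strand of mm10, where each position here is the annotated gene). It was 786, 796 and 850 CPM in the 3 CD Vec livers and 152, 286 and 339 CPM in the 3 CD c-MET/β-catenin livers. On LPD it was 684, 598 and 691 CPM in Vec and 638, 448 and 452 CPM in c-MET/β-catenin. Thus the CD c-MET/β-catenin livers lay below all 9 others, CD Vec lay above all others, and the 2 LPD groups overlapped. On CD, Ghr fell by 1.65 on the log2 scale with c-MET/β-catenin (SE 0.25, adjusted p = 0.000477 in edgeR's quasi-likelihood test). On LPD the log2 fold change was -0.36 (SE 0.25, adjusted p = 0.69). Among c-MET/β-catenin livers Ghr was higher on LPD than on CD by 0.99 on the log2 scale (SE 0.25, adjusted p = 0.0161). When replicate 1 of LPD c-MET/β-catenin was left out, the value of 0.80 did not pass (adjusted p = 0.0662). The test of the difference between the effects on LPD and CD, the interaction, gave 1.29 (SE 0.35, adjusted p = 0.0414). That call was kept in 2 of 12 fits that left out 1 library, with adjusted p between 0.0196 and 0.11.

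Stat5b encodes the main transducer of the receptor in liver (chr11:100780731-100850724, minus strand). Its level was 55.0, 32.0 and 50.6 CPM in CD Vec and 71.4, 54.0 and 62.3 CPM in CD c-MET/β-catenin. It was 70.1, 67.5 and 75.4 CPM in LPD Vec and 58.7, 48.0 and 48.5 CPM in LPD c-MET/β-catenin. The Vec livers on LPD thus lay above the c-MET/β-catenin livers on LPD and above the Vec livers on CD, whereas the 2 groups on CD overlapped. None of the 4 pairwise comparisons passed the main test for Stat5b: the log2 fold change with c-MET/β-catenin was 0.45 on CD (SE 0.18, adjusted p = 0.0757) and -0.46 on LPD (SE 0.18, adjusted p = 0.35). On CD it was called in 2 of 9 other settings, with values between 0.19 and 0.72, and in 1 of 12 fits that left out 1 library. On LPD 1 of 9 other settings called it. The opposite signs on CD and LPD gave an interaction of -0.90 (SE 0.26, adjusted p = 0.0492). That call was narrow, since 2 of 12 fits that left out 1 library kept it.

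Igf1, the secreted growth factor through which liver mediates much of growth hormone action (chr10:87858265-87937042, plus strand), was 698, 987 and 818 CPM in CD Vec. It was 514, 255 and 341 CPM in CD c-MET/β-catenin, 556, 570 and 724 CPM in LPD Vec, and 550, 519 and 689 CPM in LPD c-MET/β-catenin. All 3 CD c-MET/β-catenin livers lay below the other 9, and the 2 LPD groups overlapped. Igf1 fell by 1.17 on the log2 scale with c-MET/β-catenin on CD (SE 0.24, adjusted p = 0.00293), and the value on LPD was -0.07 (SE 0.24, adjusted p = 0.96). LPD against CD among c-MET/β-catenin livers gave 0.66 (SE 0.24, adjusted p = 0.0726), with no overlap between the groups. The interaction of 1.10 (SE 0.34, adjusted p = 0.065) did not pass in edgeR and did in DESeq2 (adjusted p = 0.0196).

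Igfals encodes the acid-labile subunit, which keeps IGFs in circulation in a complex with a binding protein (chr17:24865997-24882010, plus strand). Its level was 98.7, 216 and 166 CPM in CD Vec, and 34.9, 54.4 and 54.5 CPM in CD c-MET/β-catenin. On LPD it was 75.4, 83.9 and 94.4 CPM in Vec, and 103, 123 and 125 CPM in c-MET/β-catenin. The order of the groups on CD was turned round on LPD, where every c-MET/β-catenin liver lay above every Vec liver. Igfals fell by 1.74 on the log2 scale with c-MET/β-catenin on CD (SE 0.26, adjusted p = 0.000379). On LPD the value was 0.47 (SE 0.25, adjusted p = 0.548), and among c-MET/β-catenin livers Igfals was higher on LPD by 1.29 (SE 0.25, adjusted p = 0.00508). The interaction of 2.21 (SE 0.36, adjusted p = 0.00574) was called in all 12 fits that left out a library, the only member for which that held. LPD against CD in Vec livers gave -0.92 (SE 0.25, adjusted p = 0.153), which DESeq2 called (adjusted p = 0.028).

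Igfbp3, the main carrier of IGF1 in that complex (chr11:7206086-7213923, minus strand), spanned a narrow range. It was 39.1, 32.7 and 27.8 CPM in CD Vec and 35.6, 32.4 and 17.2 CPM in CD c-MET/β-catenin. It was 29.4, 24.5 and 27.6 CPM in LPD Vec and 21.9, 27.2 and 47.0 CPM in LPD c-MET/β-catenin. All 4 groups overlapped, and each log2 fold change lay between -0.29 and 0.24 with an SE of 0.30. Unlike Igf1 and Igfals, Igfbp3 was not called in any comparison. In liver it is made largely by cells other than hepatocytes. Per kb of exon its mean level lay between 8.68 and 10.6 CPM in the 4 groups, and that of Igf1 between 37.3 and 84.2 CPM.

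**Figure D1:**
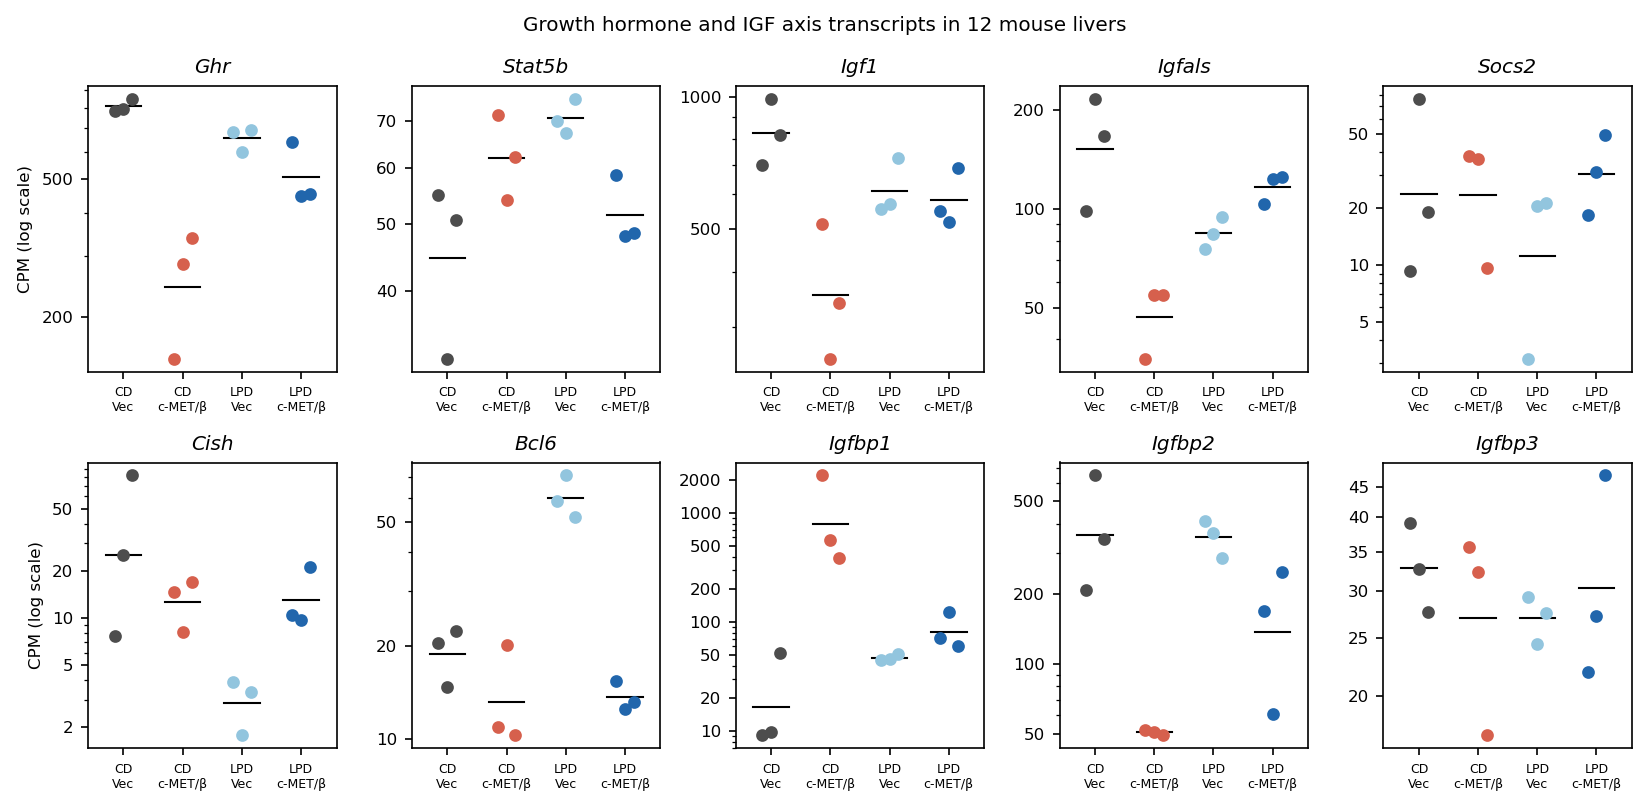
Level of the 10 transcripts in each of 12 livers, as CPM on a log scale, by group (c-MET/β stands for c-MET/β-catenin). Points are libraries and lines are geometric means of 3. The CD c-MET/β-catenin livers are lowest for Ghr, Igf1, Igfals and Igfbp2 and highest for Igfbp1, and LPD Vec livers are highest for Bcl6 and lowest for Cish.

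Socs2 and Cish are fast feedback genes of Stat5 that limit signaling at the receptor, and both varied widely within groups. Socs2 (chr10:95385362-95417180, minus strand) was 9.27, 76.4 and 19.1 CPM in CD Vec and 37.9, 36.5 and 9.62 CPM in CD c-MET/β-catenin. It was 3.17, 20.5 and 21.3 CPM in LPD Vec and 18.5, 31.1 and 49.1 CPM in LPD c-MET/β-catenin. All groups overlapped, no comparison passed the test, and SEs were between 0.82 and 0.84 on the log2 scale in the 4 pairwise comparisons. At that spread only large differences in Socs2 were detectable.

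Cish (chr9:107296026-107302784, plus strand) was 7.69, 25.4 and 81.5 CPM in CD Vec and 14.7, 8.12 and 16.9 CPM in CD c-MET/β-catenin. It was 3.89, 1.77 and 3.33 CPM in LPD Vec, from 81, 42 and 65 reads, and 10.5, 9.68 and 21.3 CPM in LPD c-MET/β-catenin. The 3 LPD Vec livers lay below the other 9, while the remaining groups overlapped one another. LPD against CD in Vec gave -3.68 on the log2 scale (SE 0.75, adjusted p = 0.0697), which did not pass in edgeR and did in DESeq2 (adjusted p = 0.000245). The value with c-MET/β-catenin was -1.53 on CD (SE 0.67, adjusted p = 0.0998) and 2.21 on LPD (SE 0.73, adjusted p = 0.232). The interaction of 3.74 passed (SE 0.99, adjusted p = 0.0413), and was kept in 2 of 12 fits that left out 1 library, with adjusted p between 0.0124 and 0.105. Without CD Vec replicate 3, the liver with the most Cish, the interaction was 2.51, the value on CD was -0.31 and that between diets in Vec was -2.45. Without CD Vec replicate 1 edgeR called both of the latter (-2.02, adjusted p = 0.0144, and -4.17, adjusted p = 0.0204). Gene models on the opposite strand, Gm17040 and Gm17041, share 2.8% and 13.1% of the exon bases of coding Cish transcripts, and whether reads were counted by strand is not stated.

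Bcl6 (chr16:23965052-23988852, minus strand) was 20.4, 14.7 and 22.3 CPM in CD Vec and 10.9, 20.1 and 10.3 CPM in CD c-MET/β-catenin. It was 58.5, 70.8 and 52.2 CPM in LPD Vec and 15.3, 12.5 and 13.1 CPM in LPD c-MET/β-catenin. The lowest LPD Vec liver, at 52.2 CPM, stood above the highest of the other 9, at 22.3 CPM, which is the pattern by which the gene came to be listed. Group means were 60.5 ± 9.47 CPM in LPD Vec (SD, n = 3) against 19.1 ± 3.93 CPM in CD Vec, 13.8 ± 5.51 CPM in CD c-MET/β-catenin and 13.7 ± 1.499 CPM in LPD c-MET/β-catenin. In log2 terms LPD Vec was 1.66 above CD Vec, and on LPD c-MET/β-catenin was -2.15 relative to Vec.

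Bcl6 was highest in LPD Vec livers, the pattern by which it was listed, and Cish was lowest in the same livers. Because Bcl6 was selected on that level, no link between the 2 genes can be read from these livers. In CD Vec replicates 1, 2 and 3, Bcl6 at 20.4, 14.7 and 22.3 CPM stood with Cish at 7.69, 25.4 and 81.5 CPM. Stat5b was also above its CD Vec level in the same LPD Vec livers, and Igfals was below it. In LPD c-MET/β-catenin livers Bcl6 lay at or below the lowest values of CD Vec except in replicate 1, and Cish lay in the range of CD Vec.

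**Figure D2:**
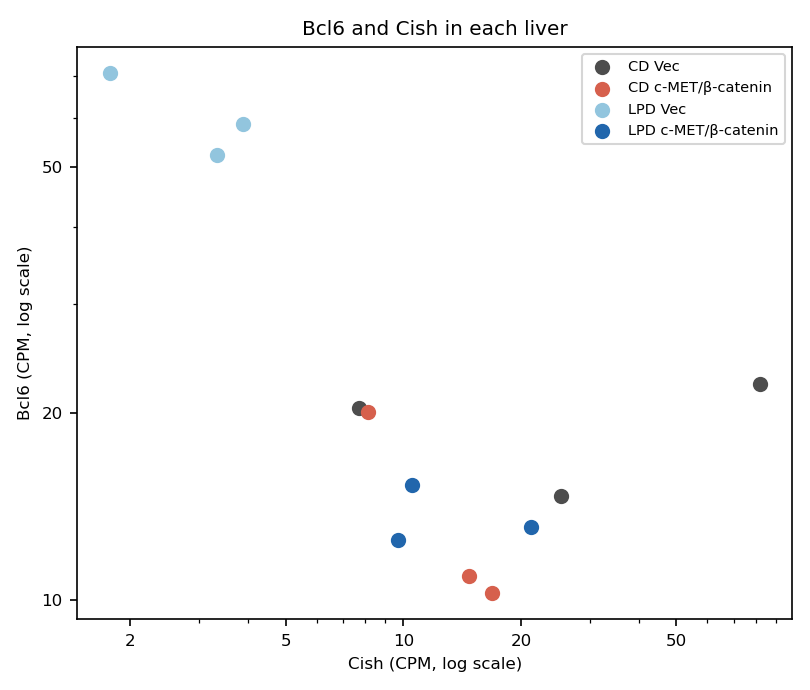
Bcl6 against Cish in each of 12 livers, both as CPM on log scales, with points colored by group. The 3 LPD Vec livers lie at 52.2 CPM or more of Bcl6 and 3.89 CPM or less of Cish, apart from the other 9. Bcl6 was listed for its level in LPD Vec livers, so its side of this separation was fixed in advance.

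Promoter sequence was examined for the letters bound by the factors of this axis, using RefSeq windows of 250 bases before to 50 after each transcript start (GRCm38.p6). Windows were found for 9 members, 15 windows in all, and Socs2 had none. The STAT5 motif TTCNNNGAA, which reads the same on both strands, was present in 5 of the 15 windows, those of Igfals, Bcl6 and Cish, and in 8.30% of all 32851 windows. Stretches of these 3 are shown with matches in capitals. Cish was lowest in LPD Vec livers, Bcl6 was listed for its level there, and Igfals had the firmest interaction. Each is given in the direction of transcription. All 3 stretches belong to starts inside the annotated gene, at 24878231 for Igfals, 23981283 for Bcl6 and 107296659 for Cish. The Bcl6 stretch lies before its start and overlaps no exon, and the Cish stretch lies in a Cish exon.
Igfals, chr17:24878131-24878230, plus strand: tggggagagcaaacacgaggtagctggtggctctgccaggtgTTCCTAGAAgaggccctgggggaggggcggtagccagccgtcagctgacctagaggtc
Bcl6, chr16:23981344-23981473, minus strand: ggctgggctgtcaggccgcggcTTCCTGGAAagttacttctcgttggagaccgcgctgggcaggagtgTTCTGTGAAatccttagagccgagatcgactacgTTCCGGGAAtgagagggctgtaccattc
Cish, chr9:107296654-107296683, plus strand: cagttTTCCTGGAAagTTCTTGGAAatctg
A match is a description of letters and not of binding. Bcl6 and Igfals each had 1 further match in the window of another start.

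Igfbp1, the insulin- and fasting-responsive binding protein (chr11:7197782-7202546, plus strand), had the largest log2 fold change of the members on CD. It was 9.17, 9.84 and 51.9 CPM in CD Vec and 2213, 570 and 386 CPM in CD c-MET/β-catenin. It was 44.8, 45.8 and 51.3 CPM in LPD Vec and 71.3, 125 and 61.1 CPM in LPD c-MET/β-catenin. The lowest CD c-MET/β-catenin liver thus stood above all 9 others, and on LPD the c-MET/β-catenin livers lay above the Vec livers without overlap but by far less. Igfbp1 rose with c-MET/β-catenin on CD by 5.48 on the log2 scale (SE 0.87, adjusted p = 0.000753). On LPD the value was 0.86 (SE 0.73, adjusted p = 0.779). Among c-MET/β-catenin livers the value for LPD against CD was -3.62 (SE 0.80, adjusted p = 0.0098), and the interaction was -4.62 (SE 1.07, adjusted p = 0.0258). Of 12 fits that left out 1 library 7 kept the interaction call. CD Vec replicate 3, the CD Vec library of run 2, was the high one of its group, and CD c-MET/β-catenin replicate 1 had the highest level of all. Without CD Vec replicate 3 the value on CD was 6.80, without CD c-MET/β-catenin replicate 1 it was 4.34, and within run 2, with 1 library on each side, it was 2.89.

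Igfbp1 and Igfbp3 are neighbors on chromosome 11, and their transcripts did not move alike: Igfbp3 had -0.22 on the log2 scale with c-MET/β-catenin on CD (SE 0.30, adjusted p = 0.588). The Igfbp1 promoter window held the forkhead motif CAAAACA, searched on both strands, starting 108 bases before the start. It was the only member with that match, and 6.28% of all windows had one. The stretch is shown because insulin is known to act on this gene through a forkhead site near its start, and the match is in capitals.
Igfbp1, chr11:7197607-7197726, plus strand: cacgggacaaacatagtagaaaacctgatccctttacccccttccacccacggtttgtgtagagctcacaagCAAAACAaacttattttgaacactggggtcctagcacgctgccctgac
The TCF motif CTTTGAT, for the partner of β-catenin on DNA, was in none of the 15 windows and in 3.73% of all windows, on either strand.

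Igfbp2, a binding protein secreted by periportal hepatocytes (chr1:72824503-72852474, plus strand), went the other way from Igfbp1. It was 209, 647 and 345 CPM in CD Vec and 52.1, 51.2 and 49.3 CPM in CD c-MET/β-catenin. It was 412, 365 and 285 CPM in LPD Vec and 168, 60.9 and 249 CPM in LPD c-MET/β-catenin. The CD c-MET/β-catenin livers agreed to within a few CPM and lay below all others, and on LPD c-MET/β-catenin livers lay below Vec livers without overlap. Igfbp2 fell by 2.98 on the log2 scale on CD (SE 0.49, adjusted p = 0.000903), and on LPD the value was -1.15 (SE 0.46, adjusted p = 0.362). Among c-MET/β-catenin livers it was higher on LPD by 1.65 (SE 0.47, adjusted p = 0.0298). LPD c-MET/β-catenin replicate 2 was nearest to the CD level, and 5 of 12 fits that left out a library lost this call. The interaction was 1.82 (SE 0.65, adjusted p = 0.104). Per kb of exon, mean Igfbp2 was 274 CPM and mean Igfbp1 15.5 CPM in CD Vec, against 34.8 and 693 CPM in CD c-MET/β-catenin, so the order of the 2 binding proteins was inverted.

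**Figure D3:**
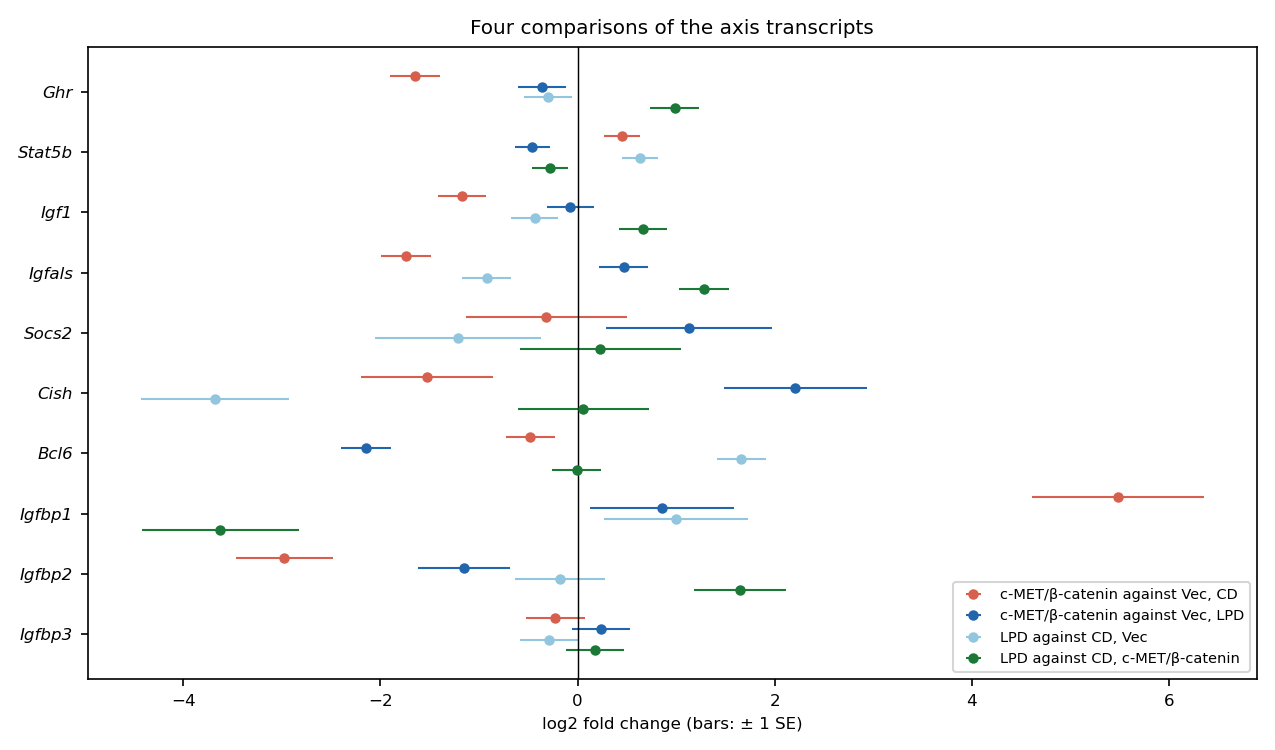
Log2 fold change of the 10 transcripts in 4 comparisons that share libraries, with bars of ± 1 SE, and no test implied for Bcl6. The largest values are those of Igfbp1 on CD (5.48) and of Cish and Igfbp1 between diets (-3.68 in Vec livers, -3.62 in c-MET/β-catenin livers).

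Counted over the members tested, 5 of 9 were called with c-MET/β-catenin on CD, 1 higher and 4 lower. Of all 13947 genes tested, 35.4% were called in that comparison, 18.7% higher and 16.7% lower. On LPD 0 of 9 members were called in edgeR, where 1.32% of all genes were called (1.15% higher and 0.165% lower), and DESeq2 also called 0. Without adjustment 3 members and 1545 of all 13947 genes had p under 0.05 there. For LPD against CD in Vec edgeR called 0 of 9, against 0.308% of all genes (0.186% higher and 0.122% lower), with 3 members and 1377 of all genes at an unadjusted p under 0.05, and DESeq2 called 2 members, Igfals and Cish. Among c-MET/β-catenin livers 4 of 9 members differed between diets, 3 higher and 1 lower on LPD, against 20.0% of all genes (8.66% higher and 11.3% lower). For the interaction 5 of 9 were called, 3 positive and 2 negative, against 8.91% of all genes (4.49% and 4.42%). DESeq2 called 5 between those diets, with Igf1 added, and 7 for the interaction, with Igf1 and Igfbp2 added. These comparisons share libraries and are not independent of one another.

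Run and group overlapped among the CD livers, since run 1 held no other group. With a term for the header runs, 1 of the 5 members stayed called on CD, Igfbp1 (3.55, adjusted p = 0.032), and 0 were called between diets in c-MET/β-catenin or for the interaction. The same edgeR fit gave Ghr an adjusted p of 0.0797, Igf1 0.0939, Igfals 0.0524 and Igfbp2 0.093. Within run 2, where CD Vec and CD c-MET/β-catenin have 1 library each, the log2 differences were -1.33 for Ghr, -1.26 for Igf1, -1.61 for Igfals and -2.81 for Igfbp2. Over all libraries the same differences were -1.72, -1.22, -1.70 and -2.82. For LPD against CD in c-MET/β-catenin livers, run 2 alone (3 against 1) gave 0.58 for Ghr, 1.09 for Igfals, -2.24 for Igfbp1 and 1.47 for Igfbp2. Each kept its sign, and with 1 library on a side these have no test.

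Other transcripts of the receptor pathway were read next, over 14 genes of which all were tested. On CD 4 were higher with c-MET/β-catenin and 0 lower, where 18.7% of all genes were higher and 16.7% lower. The median log2 fold change was 0.39 beside -0.01 for all genes. Stat5a, the close relative of Stat5b, rose by 1.17 (SE 0.29, adjusted p = 0.00771) and Socs3, a feedback gene of Stat3 that also restrains the growth hormone receptor, by 1.67 (SE 0.35, adjusted p = 0.00325). Stat3 rose by 0.81 (SE 0.27, adjusted p = 0.0368) and the phosphatase Ptpn1 by 0.48 (SE 0.11, adjusted p = 0.00607). With the header run term, the clock covariate or a fit to the 2 groups alone 1 of the 14 genes was called, with medians of 0.34, 0.32 and 0.37. Scaling by total counts called 7, with a median of 0.68 beside 0.28 for all genes. The kinase Jak2 had a value of 0.41 (SE 0.16, adjusted p = 0.0583). On LPD and for LPD against CD in Vec 0 of 14 were called in edgeR, with 0 and 2 at an unadjusted p under 0.05, while DESeq2 called 0 and 1.

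Stat5a was 13.2, 8.47 and 14.2 CPM in CD Vec and 40.6, 22.2 and 18.04 CPM in CD c-MET/β-catenin, against 19.2, 25.2 and 26.3 CPM in LPD Vec and 16.3, 21.0 and 17.7 CPM in LPD c-MET/β-catenin. Its interaction, of the same sign as that of Stat5b, was -1.53 (SE 0.40, adjusted p = 0.0367), and 7 of 12 fits without 1 library called 0 of the 14 genes for it. The leptin receptor Lepr, a cytokine receptor of the same family, followed diet instead. It was 9.22, 3.58 and 2.45 CPM in CD Vec and 47.1, 23.0 and 25.1 CPM in LPD Vec, and 11.9, 4.73 and 5.77 CPM in CD c-MET/β-catenin against 27.2, 28.8 and 36.9 CPM in LPD c-MET/β-catenin. LPD livers lay above CD livers without overlap under both injections. The log2 fold change was 2.04 in c-MET/β-catenin (SE 0.48, adjusted p = 0.0129) and 2.64 in Vec (SE 0.50, adjusted p = 0.0576). Lepr was the 1 gene of the 14 that was higher on LPD among c-MET/β-catenin livers, and 1 was lower, Socs3 (-1.30, SE 0.34, adjusted p = 0.02), beside 8.66% and 11.3% of all genes.

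Of 15 other genes of the IGF and insulin system 12 were tested. With c-MET/β-catenin on CD 5 rose and 0 fell, beside 18.7% of all genes called higher, and 1 of 12 rose with the header run term. Igf2, the fetal IGF, rose by 3.53 (SE 0.54, adjusted p = 0.000488) and its clearance receptor Igf2r by 1.21 (SE 0.22, adjusted p = 0.00133). The insulin receptor substrates Irs1 and Irs2 rose by 0.95 (SE 0.25, adjusted p = 0.0114) and 1.22 (SE 0.33, adjusted p = 0.0128). Stc1, which inhibits the proteases that cleave IGF-binding proteins, was 0.0509, 0.0569 and 0.677 CPM in CD Vec and 27.6, 18.9 and 13.0 CPM in CD c-MET/β-catenin. Its value of 6.20 on the log2 scale (SE 0.91, adjusted p = 0.000455) rests on 1, 1 and 13 reads in CD Vec, and Stc1 passed the filter on low counts only through the c-MET/β-catenin livers. Without it 4 of 11 genes rose on CD, with a median of 0.32. Among c-MET/β-catenin livers Igf2, Irs2 and Igfbp6 were lower on LPD, with log2 differences of -2.65, -1.32 and -1.73, beside 11.3% of all genes lower. Stc1 was called too (-4.85), but it was over the filter's cut in 3 CD and 1 LPD c-MET/β-catenin libraries. A call between these diets could therefore only be lower for Stc1. With Stc1 counted 4 genes were lower, and the header run term left 2 called. The receptors Igf1r and Insr were not called in any of the 5 comparisons. On LPD, between diets in Vec and for the interaction edgeR called 0 of 12, with 3, 1 and 4 at an unadjusted p under 0.05, and DESeq2 called 0, 0 and 1.

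Male-biased genes that depend on Stat5b in liver were lower with c-MET/β-catenin on CD in 10 of 14 cases and higher in 0, with a median log2 fold change of -2.20, beside 16.7% of all genes called lower. On LPD 0 of 14 were called in edgeR and in DESeq2, with 1 at an unadjusted p under 0.05, and the median was 0.42, with 10 values above 0 and 4 below. Without LPD c-MET/β-catenin replicate 1 that median was -0.15, with 5 above 0 and 9 below, so its sign rests on that library. Between diets in c-MET/β-catenin livers 10 of 14 were higher on LPD and 0 lower, with a median of 1.90, and the interaction was called for 7, beside 8.66% and 4.49% of all genes. With the header run term these calls numbered 2 and 1, with medians of 1.66 and 2.36, and with a covariate for the daily clock 6 and 3, with medians of 2.35 and 2.73, against 1.90 and 2.56. In each of these fits 13 of 14 values were above 0. LPD against CD in Vec gave 0 calls in edgeR, 3 at an unadjusted p under 0.05 and 3 in DESeq2. Slco1a1, an organic anion transporter, was 692, 739 and 864 CPM in CD Vec and 202, 204 and 294 CPM in CD c-MET/β-catenin. On LPD it was 867, 859 and 921 CPM in Vec and 827, 603 and 757 CPM in c-MET/β-catenin. Only the CD c-MET/β-catenin group was set apart from the rest, and Slco1a1 fell by 1.71 there (SE 0.18, adjusted p = 5.63e-05).

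The same order was seen for Hsd3b5, a steroid dehydrogenase of male liver, at 92.7, 320 and 228 CPM in CD Vec, 9.33, 25.9 and 16.3 CPM in CD c-MET/β-catenin, 133, 230 and 328 CPM in LPD Vec and 334, 115 and 157 CPM in LPD c-MET/β-catenin. Its log2 fold change on CD was -3.64 (SE 0.59, adjusted p = 0.000833). Cyp4a12a, a fatty acid hydroxylase of male mice, had the smallest adjusted p of the list, with -3.66 on CD (SE 0.26, adjusted p = 8.52e-06), 0.11 on LPD (SE 0.23, adjusted p = 0.94) and an interaction of 3.76 (SE 0.34, adjusted p = 0.000418). Mup21, a major urinary protein, fell by 4.90 on CD (SE 0.91, adjusted p = 0.00185). Gstp2 alone had a positive value on CD, 1.51 (SE 0.60, adjusted p = 0.0714). Counts of near-identical copies, among them Mup20 and Mup21, Cyp4a12a and Cyp4a12b, Gstp1 and Gstp2, and Cyp3a16, Cyp3a41a and Cyp3a44, are uncertain because reads can be shared between them.

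Of 21 female-biased genes, which continuous growth hormone favors and which the male pattern holds down, 19 were tested. Of these 7, among them Hao2, Cyp3a16, Cyp3a41a, Cyp3a44, Sult3a1 and Cux2, passed the filter on low counts only through c-MET/β-catenin livers, where they are high, so a call could only go up for them. Of the other 12 genes 6 were higher with c-MET/β-catenin on CD and 0 lower, with a median of 2.30, beside 18.7% of all genes called higher. Over all 19 the count was 12, with a median of 3.11, and without the filter 9 of 21 were called. On LPD 2 of the 12 were higher, A1bg and Prom1, and 0 lower, with a median of 1.02. Over all 19 the calls were 4, with Cyp3a16 and Hao2 added, and the median was 2.07, or 1.85 when 2 genes at the detection floor are set to their bound, and 1.15% of all genes were higher and 0.165% lower. Genes of this list were thus called on both diets. Prom1 was 1.27, 0.910 and 1.09 CPM in CD Vec and 51.4, 34.0 and 35.6 CPM in CD c-MET/β-catenin, and 0.912, 1.14 and 0.667 CPM in LPD Vec and 9.29, 25.2 and 8.003 CPM in LPD c-MET/β-catenin. It rose on CD by 5.20 (SE 0.46, adjusted p = 2.75e-05), and the rise on LPD was 3.95 (SE 0.45, adjusted p = 0.00182). For A1bg, a plasma protein, these values were 5.26 (SE 0.91, adjusted p = 0.00128) and 5.69 (SE 1.01, adjusted p = 0.0201). Between diets in c-MET/β-catenin livers 5 of 19 were lower on LPD and 0 higher: Prom1, Atp6v0d2, Nipal1, Cyp3a44 and Hao2. Of these, Cyp3a44 and Hao2 are among the 7 that passed the filter only through c-MET/β-catenin livers. The interaction was called for 2, Atp6v0d2 (-3.65) and Cyp3a44 (-3.14), so 1 of these is such a gene. That count was 4 without CD Vec replicate 1 and 1 without LPD Vec replicate 3. Of all genes 11.3% were lower between these diets and 4.42% had a negative interaction called. LPD against CD in Vec gave 0 calls in edgeR and in DESeq2, with 5 at an unadjusted p under 0.05.

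**Figure D4:**
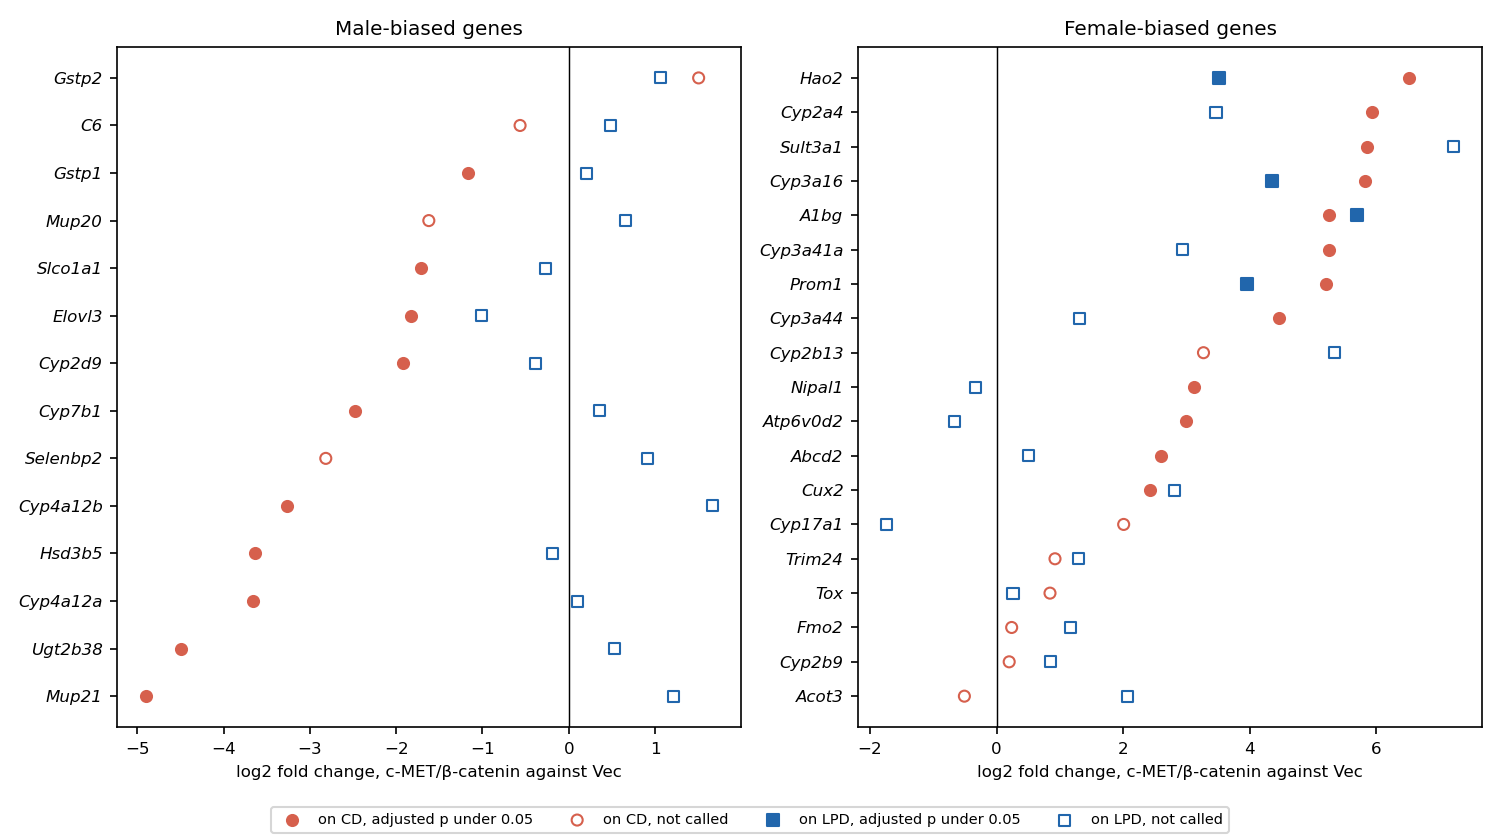
Log2 effect of c-MET/β-catenin relative to Vec for 14 male-biased and 19 female-biased liver genes, on CD (circles) and on LPD (squares), with filled symbols where the adjusted p was under 0.05. Filled circles lie left of 0 for 10 male-biased and right of 0 for 12 female-biased genes, and filled squares appear for 4 female-biased genes. Of these female-biased calls, 6 on CD and 2 on LPD are of genes that passed the filter on low counts only through c-MET/β-catenin livers. Those genes could only be called higher.

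The header run term reduced the male-biased genes called on CD from 10 to 3 and the female-biased genes from 12 to 8, with medians of -2.22 and 4.80. Female-biased calls went from 4 to 2 on LPD, from 5 to 2 between diets in c-MET/β-catenin livers and from 2 to 0 for the interaction, and the clock covariate gave 4, 3 and 0. The female-biased counts in these fits include genes that passed the filter on low counts only through c-MET/β-catenin livers. Without CD c-MET/β-catenin replicate 1, the diet comparison among oncogene livers called 6 male-biased genes and the interaction 4, against 10 and 7 with all libraries, and without LPD Vec replicate 2 the interaction was also called for 4. The female-biased calls on LPD numbered 1 without any single LPD Vec library, and those between diets numbered 3 when replicate 1 or 3 of LPD c-MET/β-catenin was left out. Scaling by total counts, which moves the median of all genes on CD to 0.28, left 9 male-biased genes lower and made 1 higher.

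Markers of some other cell types and of liver zones moved with the CD c-MET/β-catenin group, and the counts on CD stand beside 18.7% of all genes higher and 16.7% lower. Cholangiocyte markers summed to between 235 and 487 CPM there and between 82.1 and 128 CPM in the other 9 livers, with 3 of 5 tested higher on CD. Most of that sum came from Spp1 and Anxa4, with means of 253 and 125 CPM in CD c-MET/β-catenin. Krt19 was the other gene called, while Krt7 (0.33 on the log2 scale) and Epcam (-0.50) were not, and Cftr was not tested. Stellate cell and fibroblast markers summed to between 214 and 568 CPM there and between 91.6 and 185 CPM elsewhere, with 4 of 8 higher and 1 lower. Neutrophil markers were higher for 2 of 3 tested, leaving out Ngp, which passed the filter only through c-MET/β-catenin livers. Of 8 endothelial markers 0 were higher and 1 lower on CD, of 8 macrophage markers 1 was higher and 0 lower, and 0 of 6 B cell markers were called. Of T and NK cell markers 1 of 3 was higher and 1 lower, leaving out 5 that passed the filter only through c-MET/β-catenin livers. For these lists the CD c-MET/β-catenin sums overlapped those of other groups. Of 8 periportal genes 6 fell and of 9 pericentral genes 6 rose on CD, and 5 pericentral genes also rose on LPD, where 1.15% of all genes were higher. Hepatocyte markers summed to between 88700 and 94700 CPM in CD c-MET/β-catenin and between 103000 and 107000 CPM in CD Vec, with 3 of 7 lower on CD. They summed to between 88600 and 117000 CPM in LPD Vec and between 66500 and 99400 CPM in LPD c-MET/β-catenin, so the CD c-MET/β-catenin livers were not apart from the LPD groups in this sum. The part of these shifts in the values of the axis was not tested.

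Clock genes also moved. The log2 CPM of Arntl minus that of Dbp, which places a liver in the daily cycle, was 2.29, -5.83 and -0.52 in CD c-MET/β-catenin and between -6.70 and -3.92 in the other 9 livers. With this difference as a covariate the 5 members called on CD stayed called, and 1 member was called for the interaction, Igf1 (1.75, adjusted p = 0.0196). Mice of the study were harvested in the early afternoon after a fast.

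Genes with the most similar pattern were sought among 9437 genes with a mean of at least 5 CPM, by Pearson's r of log2 CPM over the 12 libraries. For Igfbp1 they were Pvr (0.987), Rell1 (0.976), Arhgef7 (0.971), Dnajc12 (0.970) and Rit1 (0.969). For Igf1 they were Plbd2 (0.946), Endog (0.946), Wfdc21 (0.937), Sec23b (0.935) and Tfr2 (0.932), and for Bcl6 they included Tmem30b (0.900), Arrdc2 (0.894), Fzd5 (0.863) and Anp32a (0.860). The Bcl6 relatives spanned far smaller ranges than Bcl6: Tmem30b had group means between 57.8 and 69.2 CPM. Among the members themselves Igfbp1 was most opposed to Ghr, with r of -0.93. All of these values share the same 12 libraries and 4 groups.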

How the data were processed

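Bulk RNA-seq was compared in 12 mouse livers. The authors aligned reads to mm10 with HISAT2, counted them per gene with featureCounts, and deposited integer counts with no normalization; versions and strand setting are not given in the sources used here. The labels describe rRNA depletion, the study's methods mRNA selection. Column names call chow HPD, and groups follow the titles. Of 27179 genes, 93.1% had a symbol (RefSeq GRCm38.p6, GENCODE M21).

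Counts were tested in R 4.3.3 with edgeR 4.0.16 (TMM, filterByExpr, robust quasi-likelihood F test, 4 groups in 1 fit without covariates, Benjamini-Hochberg over 13947 genes, called at adjusted p under 0.05). DESeq2 1.42.0 was an alternative. The interaction is the effect on LPD minus that on CD. Each SE was taken as the size of the log2 value divided by the root of its F statistic. At 1 CPM the smallest library has 19.48 counts. Bounds use a floor of 3 counts in each library. Replicates were not duplicates (chi-square per gene at least 27.2). Tested on simulated data, 89.5% of 4-fold changes on CD and 72.5% for the interaction were called (200 of 13947 genes changed). Unchanged genes made up 1.6% of simulated calls on CD, 8% on LPD, 2.8% between diets in Vec, 6.8% between diets in c-MET/β-catenin and 2.7% for the interaction. In the data 35.4% of genes were called on CD, so the simulation does not match that setting.

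Members, gene lists and tests were chosen with earlier results of these data known, and alternatives for the sex-biased lists were added after seeing the data. Genes named were the members, genes of the lists, and the 5 genes most like Bcl6, Igf1 and Igfbp1, and some of these are not reported here.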

Additional observations from a re-analysis of the deposited data

Results flagged for a closer look

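Results are given here because the effect of c-MET/β-catenin differed between LPD and CD by edgeR's interaction test. No explanation was weighed, and no test for outlying libraries was run in these groups of 3. Among the axis members the log2 differences (effect on LPD minus effect on CD) were 1.29 for Ghr, -0.90 for Stat5b, 2.21 for Igfals, 3.74 for Cish and -4.62 for Igfbp1. Of 12 fits that left out 1 library, the call was kept in 2 each for Ghr, Stat5b and Cish, in 7 for Igfbp1 and in all 12 for Igfals. In receptor signaling Stat5a had -1.53.

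Of the male-biased genes, positive differences were found for Cyp2d9 (1.54), Cyp4a12a (3.76), Cyp4a12b (4.94), Hsd3b5 (3.45), Slco1a1 (1.44), Mup21 (6.12) and Ugt2b38 (5.02). Negative ones were found for the female-biased Cyp3a44 (-3.14) and Atp6v0d2 (-3.65), of which Cyp3a44 passed the filter on low counts only through c-MET/β-catenin livers. Pdk4, which encodes a kinase that inhibits pyruvate dehydrogenase and responds to insulin through Foxo1, had -3.54.

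Negative differences were also found for the amino acid response genes Asns (-4.28), Trib3 (-2.63), Atf5 (-1.25), Psat1 (-4.29) and Phgdh (-4.56). With the header run term 0 genes of the receptor, female-biased, insulin and amino acid lists were called for the interaction, and 1 male-biased gene.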

How the results depend on the processing

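Groups of 3 and 1 library of CD in run 2 on each side limit these calls, and depth limits genes below 1 CPM. The header run term called 945 genes and 1 member on CD, 75 genes on LPD, 16 between diets in Vec, 618 and 0 members between diets in c-MET/β-catenin, and 85 and 0 members for the interaction. The clock covariate called 2321 genes on CD, 1523 between diets in c-MET/β-catenin, and 289 and 1 member for the interaction. Fits to 2 groups called 3014 genes on CD, 505 and 2 members (Stat5b and Cish) on LPD, and 3 between diets in Vec. DESeq2 called 476 genes on LPD, 338 and 2 members between diets in Vec, and 2042 for the interaction, total counts 66 between diets in Vec, and no filter 2 members for the interaction. With total counts the share of calls that were higher was 78.8% on CD and 29.0% for the interaction, and the median of all genes moved to 0.278 and -0.156; the cause of these changes was not tested.

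Replicate numbers did not pair libraries: 18 same-numbered pairs had a median correlation of deviations of -0.024, with 2 over 0.1. A replicate block called 16 genes between diets in Vec, and 812 and 3 members for the interaction.

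Signs reversed only for values that were not called. With total counts these were Socs2 (0.0096) and Igfbp3 (0.0622) on CD, Igf1 (0.0323) on LPD and Cish (-0.0202) between diets in c-MET/β-catenin; with the replicate block Socs2 on CD (0.21) and Cish (-0.0071) between those diets; with the run term Cish (-0.29). Leaving out single libraries gave Socs2 -0.76 to 0.98 and Igfbp3 -0.42 to 0.0308 on CD, Igf1 -0.21 to 0.0573 and Igfbp3 -0.14 to 0.45 on LPD, and Socs2 -1.66 to 0.0775 and Igfbp2 -0.48 to 0.35 between diets in Vec. Between diets in c-MET/β-catenin it gave Cish -0.39 to 0.27, Socs2 -0.17 to 0.52 and Igfbp3 -0.20 to 0.39.

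Without single libraries, between 52 and 254 genes were called on LPD (fewest with LPD Vec replicate 1 left out), 5 to 104 and 0 to 2 members between diets in Vec, 1585 to 3660 and 2 to 4 members between diets in c-MET/β-catenin, and 391 to 1404 and 1 to 4 members for the interaction. The lowest counts came with LPD Vec replicate 3, LPD c-MET/β-catenin replicate 3 and LPD Vec replicate 2 left out, in that order. On CD 4251 to 4859 genes and 5 to 7 members were called.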

Other observations

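Genes that respond to amino acid shortage, which is known to raise Igfbp1, were read over a list of 10. With c-MET/β-catenin on CD 7 were higher and 0 lower, beside 18.7% and 16.7% of all genes, with a median log2 fold change of 1.57, and the header run term left 2 higher and 1 lower. For LPD against CD in Vec 4 were higher, Asns (4.48), Trib3 (1.97), Atf5 (1.53) and Psat1 (3.91), against 0.186% of all genes called higher. The header run term left 2 called and a fit to the 2 groups alone 0. Leaving out single libraries left between 1 and 5 of the list called, with 1 in the absence of CD Vec replicate 2, LPD Vec replicate 2 or LPD Vec replicate 3, and 2 in that of CD Vec replicate 3. Fgf21, a hormone of protein restriction, was 4.28, 1.65 and 2.45 CPM in CD Vec and 11.5, 42.5 and 41.2 CPM in LPD Vec, and its value of 3.50 on the log2 scale did not pass (SE 0.71, adjusted p = 0.0685). Igfbp1 in the same comparison had 0.999 (SE 0.73, adjusted p = 0.716). That value was 2.32 without CD Vec replicate 3 and 0.608 without CD Vec replicate 1, and within run 2 the difference of mean log2 CPM was -0.10 (2 against 1).

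Of 9 genes that Foxo1 or insulin regulate, 2 were higher and 3 lower with c-MET/β-catenin on CD, beside 18.7% and 16.7% of all genes, and 0 were called with the header run term. Pdk4 rose by 3.81 on the log2 scale (SE 0.64, adjusted p = 0.00105), while Pck1, the entry enzyme of gluconeogenesis, fell by 1.87 (SE 0.45, adjusted p = 0.0072). Foxo1 itself had -0.17 (SE 0.21, adjusted p = 0.569).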
